A study of Mus musculus with 11 samples.

Results

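Krt19, Krt7, Sox9, Spp1, Jag1, Notch1, Notch2 and Hes1 are 8 genes of the bile duct lineage and of the Notch pathway, chosen by name from the gene names printed on an Agilent 4x44k mouse array. They are 8 of 27962 gene names and 15 of 41174 probes on the array, all 8 could be tested among 16702 genes, and 13 of their 15 probes passed the filter on dim signals. RNA from normal mouse liver was labelled with Cy5 and hybridised against one commercial adult mouse liver reference labelled with Cy3, at embryonic day 14 (E14, 3 arrays), embryonic day 18 (E18, 3 arrays), postnatal day 5 (P5, 2 arrays) and postnatal day 56 (P56, 3 arrays). No genotype or treatment separated the stages. The labels call the E14 samples hepatoblasts, the E18 samples immature hepatocytes and the P5 and P56 samples hepatocytes, but they also give liver as the source of each. Isolated cells and whole livers are both named in the extraction protocol, so whether the embryonic arrays hold purified cells is not settled. Each array is labelled a biological replicate, and whether a sample pooled several animals is not given in the sources used here.

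Bile ducts arise in fetal liver from hepatoblasts, the common precursors of hepatocytes and cholangiocytes. Hepatoblasts next to the portal mesenchyme receive Jag1, a Notch ligand, through the Notch2 receptor on their own surface, and form the ductal plate, which expresses Sox9 and later the keratins Krt7 and Krt19. A bound Notch receptor is cleaved by gamma-secretase, and its intracellular part joins the DNA-binding protein Rbpj in the nucleus to switch on genes such as Hes1. Cholangiocytes are a small share of the cells of a liver, and Notch1, Notch2, Jag1, Hes1 and Spp1 are also made by endothelial cells, macrophages or stromal cells, so a liver extract reads the sum over cell types.

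The results turn on Spp1, Notch1 and Notch2, and on whether different probes of a gene gave the same course. The opening 30 bases of their probes, each 60 bases long, are given 5′ to 3′ in lower case as the array files hold them, so that the stretches of transcript behind each value can be seen.

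Spp1 probe 1: cttagtctgttgtttcatgcaaacaccgtt
Notch1 probe 1: ggcactaggggaaaaacatatctgttccaa
Notch1 probe 2: tatgtacttttattttccacagaaacactg
Notch2 probe 1: ccacttgaagtcttgcatagaaatgaacca
Notch2 probe 2: cccagagtctcctgaccaatggtcaagctc
Notch2 probe 3: tctgtggtaatctaggatgatagttttctc

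Probes were numbered within a gene from the brightest, and the brightest stood for the gene. On the mm7 build used by the array files, the Spp1 probe lies at chr5:103631152-103631211 on the plus strand. The Notch1 probes adjoin each other on the minus strand at chr2:26466563-26466621 and chr2:26466621-26466680. The 3 Notch2 probes lie on the plus strand at chr3:98021215-98021274, chr3:98018506-98018565 and chr3:98020144-98020203. An exon annotation of that build was not used here, so the part of the transcript each probe reads is not given. RefSeq promoter windows (GRCm38.p6, 250 bases before to 50 after a start) were on hand for 5 of the 8 genes, Krt7, Spp1, Jag1, Notch1 and Notch2. None of their 6 windows held TGGGAA, the core letters of the Rbpj site, on either strand, against 25.6% of all 32851 windows.

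Values are normalised log2 ratios of Cy5 over Cy3, so 0 means equal signal from the stage and from adult reference liver, and a difference of 1 between stages is a doubling. Because no dyes were swapped, a level against 0 is open to dye bias, whereas differences between stages compare arrays of one orientation. The correlation of log2 ratios between replicates was 0.986 to 0.989 at E14, 0.965 to 0.982 at E18, 0.894 at P5 and 0.826 to 0.934 at P56. P56 replicate 2 was the dimmest array, with 16790 spots well above background in Cy5 against 20131 to 25718 on the others, and without it 6 of the 8 genes in place of 5 were called between P5 and P56, 2 in place of 3 between E14 and P56, and as many as with it in the other comparisons. No probe of the 8 genes was saturated. Apart from Spp1, Notch2 and Krt7, the genes were dim, with Cy5 signals mostly 1.2 to 7.6 times the local background, and the offset of 50 added after background correction shrinks the fold changes of such dim genes.

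Between E14 and E18, 5 of the 8 genes rose (Spp1, Notch2, Notch1, Sox9 and Krt19) and none fell by limma, or at an unadjusted p under 0.05 (0 genes). Over all genes tested, 47.4% changed in this comparison at an adjusted p under 0.05, 24.6% higher and 22.8% lower. Between E18 and P5, Hes1 rose and Notch2 fell, where 13.7% of all genes changed (7.32% higher and 6.4% lower). Between P5 and P56, 5 fell (Krt19, Spp1, Notch1, Notch2 and Hes1) and 0 rose, with 7 lower and 0 higher at an unadjusted p under 0.05, where 45.6% of all genes changed (20.9% higher and 24.7% lower). From E18 to P56, 6 fell (Krt19, Krt7, Sox9, Spp1, Notch1 and Notch2) and 0 rose, with the same counts at an unadjusted p under 0.05, where 64.8% changed (31.2% higher and 33.6% lower). From E14 to P56, Spp1 and Notch1 rose and Krt7 fell, where 70.9% changed (36.1% higher and 34.8% lower). The median log2 fold change of the 8 genes was 0.58, -0.05, -0.50, -0.69 and 0.00 in these comparisons, in that order, and that of all genes lay between -0.02 and 0.04. Without P5 replicate 2, 3 of the 8 genes were called between P5 and P56. Without E18 replicate 3 or P5 replicate 3 none was called between E18 and P5 (3 at an unadjusted p under 0.05 in each case), and 1 was called without E14 replicate 1, 2 or 3, E18 replicate 1 or 2 or P56 replicate 3. These comparisons share arrays with one another, so they are not separate lines of support. In a bulk extract, fewer cells of a type and less RNA per cell cannot be told apart.

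**Figure D1:**
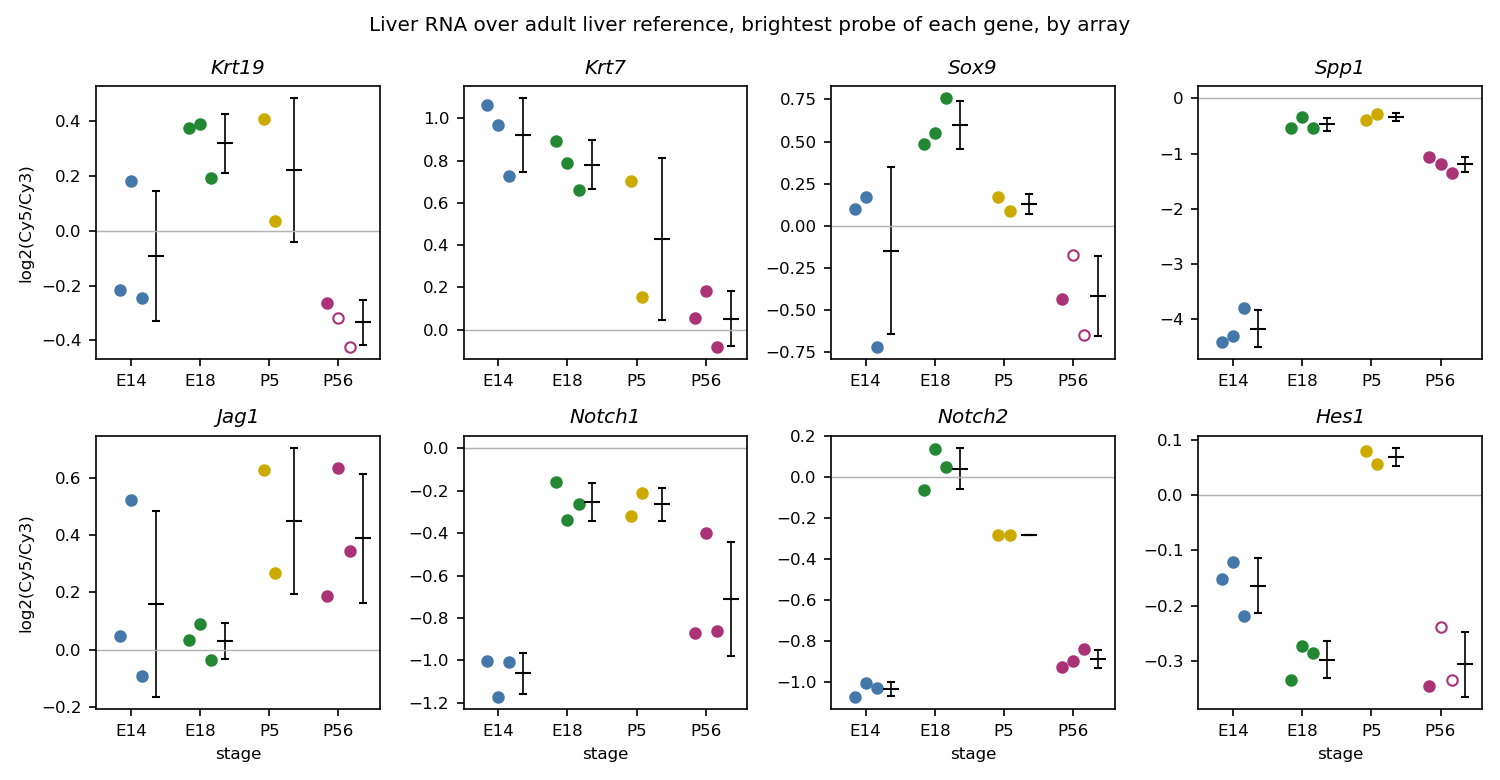
Normalised log2 ratio of Cy5 over Cy3 (vertical axis, scaled separately in each panel) for the brightest probe of each gene at the 4 stages. Each circle is an array, open where the Cy5 signal was not well above background, and bars give the stage mean and SD. Spp1, Notch1 and Notch2 stand lowest at E14, and the 3 P56 arrays of Notch2 lie below its E18 and P5 arrays.

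Keratin 19 (Krt19), an intermediate filament protein of cholangiocytes, measured -0.22, 0.18 and -0.24 on the 3 E14 arrays and 0.37, 0.39 and 0.19 on the E18 arrays. The P5 arrays gave 0.41 and 0.04, and those of P56 gave -0.26, -0.32 and -0.42. The P56 arrays lay below all others, the P5 arrays were far apart, and the highest E14 array came within 0.02 of the lowest E18 array. Krt19 was higher at E18 than at E14 by 0.41 ± 0.13 (log2 fold change ± SE, limma adjusted p = 0.025) and lower at P56 than at E18 by a log2 fold change of -0.65 ± 0.13 (adjusted p = 0.0012). From P5 to P56 the change was -0.56 ± 0.15 (adjusted p = 0.010). At P56 the probe was well above background on 1 of 3 arrays, at 1.2 to 1.8 times the local background, so the low end of this course is near the limit of the array. The rise to E18 was no longer called without E14 replicate 1 or 3 or E18 replicate 1 or 2 (adjusted p 0.071 to 0.10), and the fall from P5 was not called without P5 replicate 2 (-0.37, adjusted p = 0.14). That rise was also not called in Cy5 alone (0.22, adjusted p = 0.33) or with the scanner's processed signals (0.56, adjusted p = 0.36). The gene table deposited with the arrays (0.72, adjusted p = 0.22) and an equal-variance t-test (adjusted p = 0.095) did not call it either.

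Keratin 7 (Krt7), the other duct keratin, was the 1 gene of the 8 that stood highest at E14. Its brightest probe measured 1.06, 0.97 and 0.73 at E14, 0.89, 0.79 and 0.66 at E18, 0.70 and 0.16 at P5 and 0.05, 0.18 and -0.08 at P56. E14 and E18 overlapped and the difference was not called (-0.14 ± 0.15, 95% confidence interval -0.46 to 0.18). In Cy5 alone Krt7 was called lower at E18 than at E14 (-0.49, adjusted p = 0.037). The P56 arrays lay below every E14 and E18 array, at -0.87 ± 0.15 against E14 (adjusted p = 2.0e-04) and -0.73 ± 0.15 against E18 (adjusted p = 9.0e-04). The second Krt7 probe, much dimmer, was also highest at E14 (0.42, 0.47 and 0.46) and lowest at P56 (-0.12, 0.09 and 0.11), where it was not well above background on any array. On that probe Krt7 was at least 1.34-fold higher at E14 than at P56 (adjusted p = 0.0039 in the fit over 23523 probes). Such a bound, used where a stage had no array above background, is the smaller of the fold of the ratios and the fold in Cy5 alone. The Cy5 fold takes each dim array at its measured signal or its detection limit, whichever is higher, and is open to dye bias. The words at least, here and below, refer to the dim signal and take no account of the spread between arrays. For this probe the 95% interval of P56 against E14 was -0.66 to -0.19 on the log2 scale. Its difference between P56 and E18, -0.26 ± 0.11, was not called (adjusted p = 0.053). The steps from E18 to P5 and from P5 to P56 did not pass on either probe with all arrays, and on the brightest probe they passed when P5 replicate 2 (-0.62, adjusted p = 0.018) and P5 replicate 3 (-0.65, adjusted p = 0.0061), respectively, were left out.

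Sox9, a transcription factor of the ductal plate, measured 0.10, 0.17 and -0.72 at E14, 0.48, 0.55 and 0.76 at E18, 0.17 and 0.09 at P5 and -0.43, -0.17 and -0.65 at P56. E18 stood above every array of the other stages, and E14 replicate 3 lay far below its fellows, a gap that the second probe of Sox9 shared (0.06, 0.19 and -0.54). The rise from E14 to E18 was 0.74 ± 0.21 (adjusted p = 0.011), or 0.46 without E14 replicate 3 (adjusted p = 0.026), and the fall from E18 to P56 was -1.01 ± 0.21 (adjusted p = 0.0011). The second probe gave 0.47 ± 0.16 (adjusted p = 0.036) and -0.74 ± 0.16 (adjusted p = 0.0020) for the same steps. The rise of Sox9 was not called with the scanner's processed signals (1.14, adjusted p = 0.11) or in the deposited gene table (0.74, adjusted p = 0.10). An equal-variance t-test did not call it either (adjusted p = 0.11). Without E14 replicate 3 the rise on the second probe was 0.24 (adjusted p = 0.13) and was not called, and the falls from E14 to P56 (-0.55, adjusted p = 0.0059) and from P5 to P56 (-0.55, adjusted p = 0.011) were called on the brightest probe. At P56 both probes were well above background on 1 of 3 arrays, and the remaining Sox9 probe was at background throughout.

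Osteopontin (Spp1), a secreted phosphoprotein of cholangiocytes that macrophages and stellate cells also make, changed far more than the other 7 genes. It measured -4.41, -4.31 and -3.79 at E14, and -0.54, -0.33 and -0.53 at E18. Its P5 arrays gave -0.39 and -0.28, and its P56 arrays gave -1.06, -1.19 and -1.34. All stages but E18 and P5 were separated without overlap, and Spp1 stood below the adult reference on every array. The rise from E14 to E18 was 3.70 ± 0.15 on the log2 scale (adjusted p = 7.8e-09), and the Cy5 signal went from 2.6 to 6.7 times the local background at E14 to 63.0 to 76.1 times at E18. From E18 to P5 the difference was 0.13 ± 0.17, with an interval of -0.23 to 0.50. Spp1 then fell by 0.86 on the log2 scale from P5 to P56 (SE 0.17, adjusted p = 0.0014), which left P56 at 2.97 ± 0.15 above E14 (7.85-fold, adjusted p = 7.7e-09). The calls from E14 to E18 and from E14 to P56 stood in every alternative that tested them.

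Jag1, the membrane-bound ligand that patients with Alagille syndrome carry in mutated form, showed no change that passed the test in any comparison. It measured 0.05, 0.53 and -0.09 at E14, 0.03, 0.09 and -0.04 at E18, 0.63 and 0.27 at P5 and 0.19, 0.63 and 0.35 at P56. Its E18 arrays were close together and lay below all P5 and P56 arrays, while E14 overlapped every other stage. The difference was -0.13 from E14 to E18 (95% interval -0.50 to 0.23), 0.42 from E18 to P5 (0.01 to 0.83, adjusted p = 0.16) and 0.36 from E18 to P56 (-0.00 to 0.73, adjusted p = 0.076). The last of these was called without E14 replicate 2 (adjusted p = 0.037) or without P56 replicate 1 (0.46, adjusted p = 0.041), and without E14 replicate 2 Jag1 was higher at P56 than at E14 (0.41, adjusted p = 0.032). A second Jag1 probe was not well above background on any of the 11 arrays.

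Notch1, a receptor prominent in endothelial and blood cells, measured -1.005, -1.17 and -1.01 at E14 and -0.16, -0.34 and -0.26 at E18. The P5 values were -0.32 and -0.21, and the P56 values were -0.87, -0.40 and -0.86. E14 stood below all other arrays, E18 and P5 overlapped, and P56 replicate 2 lay closer to P5 than the other 2 P56 arrays did. The rise from E14 to E18 was 0.81 ± 0.13 (1.75-fold, adjusted p = 2.8e-04), and the adjoining probe gave 0.55 ± 0.11 (adjusted p = 0.0014). From E18 to P56 Notch1 fell by 0.46 (SE 0.13, adjusted p = 0.0078) on the brightest probe, whereas the adjoining probe gave -0.15 ± 0.11 (adjusted p = 0.26) and was not called. The fall from P5 to P56 (-0.45 ± 0.14, adjusted p = 0.024) was not called without any 1 of P5 replicates 2 and 3 and P56 replicates 1 and 3 (adjusted p 0.060 to 0.095). P56 was above E14 by 0.35 ± 0.13 (adjusted p = 0.027), which was not called without E14 replicate 2 (0.30, adjusted p = 0.096) or P56 replicate 2 (0.20, adjusted p = 0.11).

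Notch2, the receptor that carries the signal in duct formation, was called at each step from E14 to E18, P5 and P56. Its brightest probe measured -1.07, -1.003 and -1.03 at E14, -0.06, 0.14 and 0.05 at E18, -0.28 and -0.28 at P5 and -0.93, -0.90 and -0.84 at P56. Stages did not overlap, in the order E14, P56, P5 and E18 from low to high, and of the 5 comparisons the one of P56 with E14 was not called (0.15 ± 0.08, adjusted p = 0.14). The rise from E14 to E18 was 1.07 ± 0.08 (2.11-fold, adjusted p = 1.0e-06) and the fall from E18 to P56 was -0.93 ± 0.08 (adjusted p = 1.9e-06), of which -0.60 ± 0.09 came between P5 and P56 (adjusted p = 3.1e-04). The smaller step from E18 to P5, -0.32 ± 0.09 (adjusted p = 0.042), was lost without any 1 of E14 replicates 1, 2 and 3, E18 replicates 2 and 3, P5 replicates 2 and 3 and P56 replicate 3 (adjusted p 0.053 to 0.17). Leaving out an E14 or a P56 array leaves this difference at -0.32 and changes only the shared estimate of spread.

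The other Notch2 probes did not follow this course after birth. The second probe measured -0.54, -0.66 and -0.55 at E14, -0.17, 0.02 and -0.28 at E18, -0.19 and -0.16 at P5 and -0.13, 0.01 and -0.12 at P56. It was not well above background on any E14 array, so Notch2 was at least 1.24-fold higher at E18 than at E14 on this probe (adjusted p = 0.0029) and at least 1.42-fold higher at P56 (adjusted p = 6.0e-04). Between E18 and P56 it differed by 0.06 ± 0.10, with a 95% interval of -0.15 to 0.27, which does not reach the -0.93 of the brightest probe. The third and dimmest probe differed by 0.10 ± 0.13 from E14 to E18 and by 0.09 ± 0.13 from E18 to P56 (-0.18 to 0.37), neither of them called, and was not well above background on any E14 or P56 array. The mean of the 3 probes gave -0.13 from P5 to P56 (adjusted p = 0.25), and the gene table deposited with the arrays gave -0.04 (adjusted p = 0.82), so the call in this step rests on the 1 bright probe. From E18 to P56 both still called a fall, a smaller one, of -0.26 (adjusted p = 0.015) and -0.54 (adjusted p = 0.0029). Both also called Notch2 higher at P56 than at E14, by 0.28 (adjusted p = 0.0083) and 0.58 (adjusted p = 0.0015). An offset of 16 (0.29, adjusted p = 0.027) and an equal-variance t-test (adjusted p = 0.021) called it higher too, whereas median centring called it lower (-0.74).

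**Figure D2:**
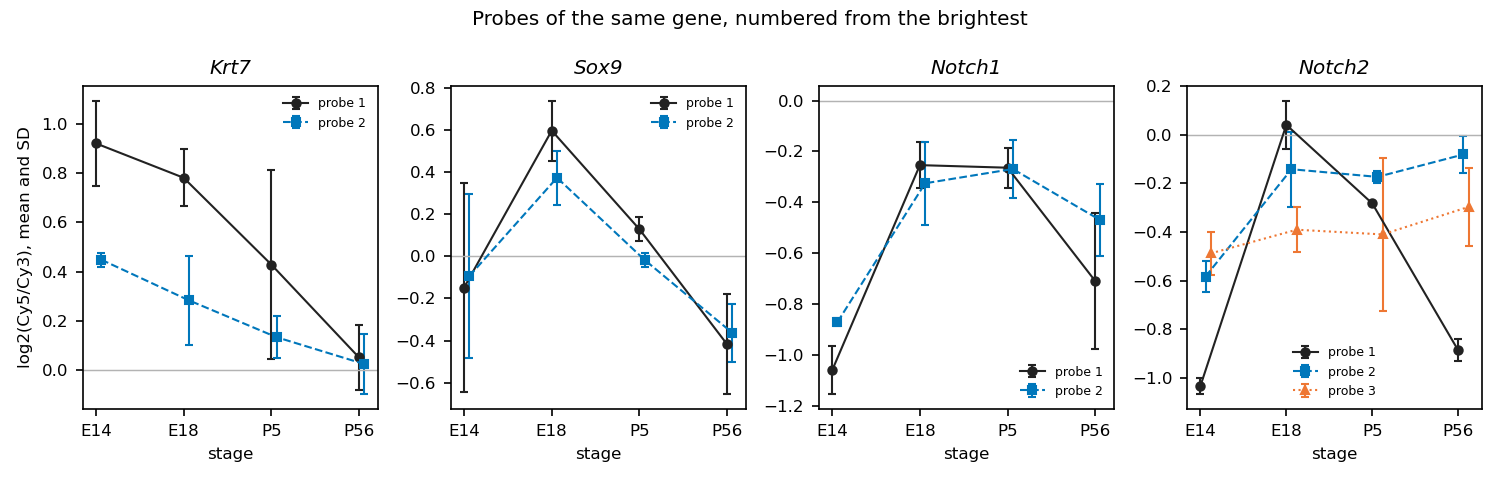
Stage means with SD of the log2 ratio of Cy5 over Cy3 for the probes that passed the filter in the 4 genes with more than 1 such probe, numbered from the brightest. The Sox9 probes, like the Krt7 probes, move in the same direction at each step but by different amounts. The bright Notch2 probe falls to -0.89 at P56 while the other Notch2 probes stay at -0.08 and -0.30.

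Hes1, a transcriptional repressor and the classical target of Notch, changed little in the main fit and was dim throughout. It measured -0.15, -0.12 and -0.22 at E14, -0.33, -0.27 and -0.28 at E18, 0.08 and 0.06 at P5 and -0.34, -0.24 and -0.33 at P56. Both P5 arrays lay above all others and the remaining stages lay within 0.22 of one another. Hes1 was higher at P5 than at E18 by 0.37 ± 0.09 (1.29-fold, adjusted p = 0.020) and lower at P56 than at P5 by a log2 fold change of -0.37 ± 0.09 (adjusted p = 0.0051). E18 did not differ from E14 by the test (-0.13 ± 0.08, adjusted p = 0.20), with Notch1 and Notch2 higher at E18. Its Cy5 signal was 1.2 to 2.8 times the local background, and at P56 it was well above background on 1 of 3 arrays. The rise to P5 was not called without E18 replicate 1, E18 replicate 3 or P5 replicate 3 (adjusted p 0.054 to 0.086). Other settings called more changes of Hes1. P56 was called lower than E14 in 6 of 24 alternatives, by -0.90 in the deposited gene table (adjusted p = 2.9e-04). That table also called P56 lower than E18 (-0.61, adjusted p = 0.0046). E18 was called lower than E14 with the scanner's processed signals (-0.40, adjusted p = 0.022) and by an equal-variance t-test (adjusted p = 0.040).

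**Figure D3:**
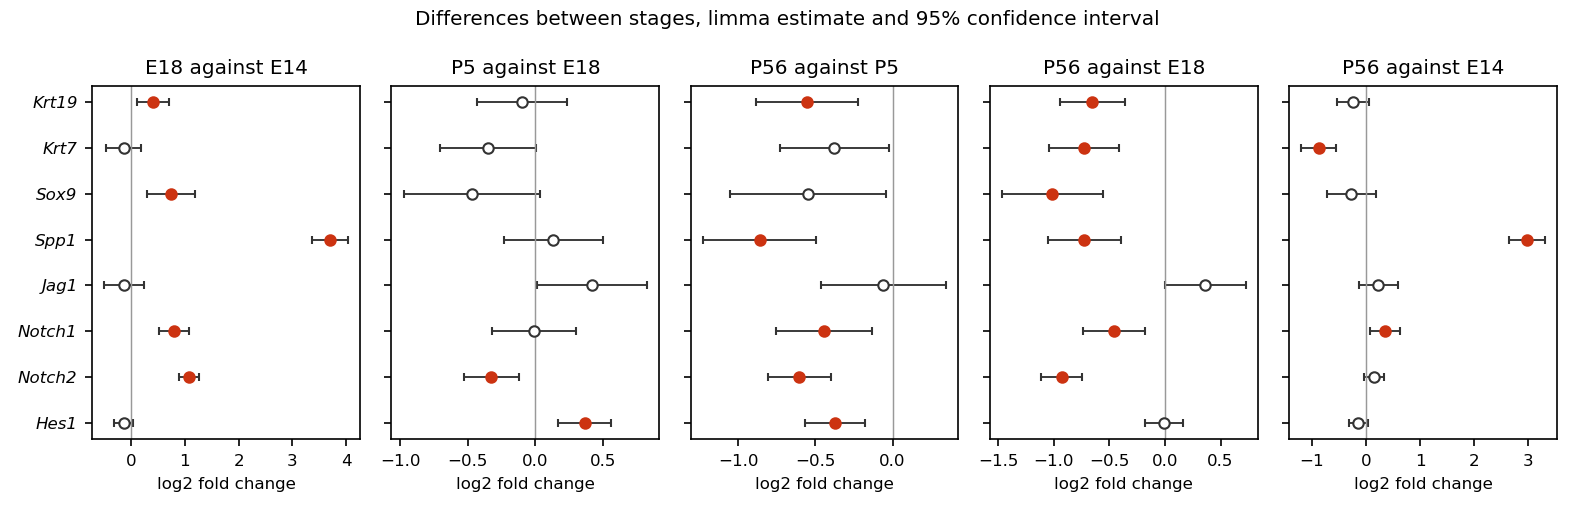
Log2 fold change between stages for the 8 genes in the 5 comparisons, with 95% confidence intervals from limma. Filled red circles passed an adjusted p under 0.05. Spp1 lies at 3.70 from E14 to E18 while the other called genes lie between 0.41 and 1.07, and every called gene lies below 0 from P5 to P56 and from E18 to P56.

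The arrays were scanned on 4 occasions that follow the stages in part. E18 replicate 1 shared its scan with the E14 arrays, and within that scan it stood above their mean by 3.63 for Spp1, 0.97 for Notch2, 0.90 for Notch1, 0.63 for Sox9 and 0.47 for Krt19. With the scan as a block the first 3 remained called (adjusted p = 3.6e-06, 1.8e-04 and 0.0048), and Sox9 (0.15) and Krt19 (0.071) did not. P5 replicate 3 shared its scan with the P56 arrays, and within it the P56 mean stood below by -0.92 for Spp1, -0.60 for Notch2, -0.50 for Notch1, -0.37 for Krt19 and -0.36 for Hes1. Spp1, Notch2 and Hes1 remained called under that block (adjusted p = 0.012, 0.0032 and 0.040), and Notch1 (0.072) and Krt19 (0.16) did not. No scan held arrays of both stages in the other 3 comparisons. There, with the scan as a random block, Notch1 from E14 to P56 (adjusted p = 0.067) and Notch2 from E18 to P5 (adjusted p = 0.073) were no longer called.

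The P56 comparisons also depended on how arrays were scaled. Centring each array on its median in place of the intensity-dependent loess correction moved the median of all genes by -0.47 from P5 to P56, -0.42 from E18 to P56 and -0.33 from E14 to P56, and the share of called genes that were higher went from 45.7% to 6.84%, from 48.1% to 14.9% and from 51.0% to 22.9%. Under that scaling all 8 genes fell from P5 to P56. Notch2 was then lower at P56 than at E14 (-0.74, adjusted p = 4.6e-04) and Notch1 turned to -0.22 (adjusted p = 0.12). In Cy5 alone Notch1 was also not higher at P56 than at E14 (-0.02, adjusted p = 0.86). The rises of Spp1, Notch1 and Notch2 from E14 to E18 did not depend on this choice, at 3.62, 0.88 and 1.06 after median centring.

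Among the other genes of the Notch pathway, 29 of 37 listed could be tested. The share called was 31%, 3.45%, 48.3%, 58.6% and 69% in the 5 comparisons, in the order used above, against 47.4%, 13.7%, 45.6%, 64.8% and 70.9% of all genes. From E14 to E18, 5 rose and 4 fell, with a median log2 fold change of -0.02, against 1 lower and 0 higher between E18 and P5 (2 higher at an unadjusted p under 0.05), 4 higher and 10 lower between P5 and P56, 5 higher and 12 lower from E18 to P56, and 8 higher and 12 lower from E14 to P56. The medians of the last 3 were -0.20, -0.23 and -0.16. Jag2, Dll3, Lfng, Rfng, Maml3, Hey2 and Numbl were not well above background on any array.

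Of the other ligands, Dll1 rose from -0.54 ± 0.07 (mean ± SD) at E14 to -0.15 ± 0.09 at P56, a log2 fold change of 0.39 (adjusted p = 0.0042), and Dll4 passed in no comparison. The other receptors fell after birth, Notch3, a receptor of mural cells, by 0.77 on the log2 scale from P5 to P56 (adjusted p = 0.0072) and Notch4, an endothelial receptor, by 0.35 (adjusted p = 0.019). Neither changed from E14 to E18 by the test. The receptor sheddases Adam10 and Adam17 both fell from E18 to P56, Adam17 by 0.46 on the log2 scale and Adam10, not well above background on any P56 array, by at least 1.35-fold.

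The gamma-secretase genes held the largest change of the pathway. Psen2, a catalytic subunit, rose from -2.47 ± 0.11 at E14 to -1.18 ± 0.04 at E18. It was lower at P5, at -1.64 ± 0.18 (-0.46 against E18, adjusted p = 0.042), and reached 0.30 ± 0.21 at P56. The log2 fold change between E14 and P56 was 2.77 ± 0.12 (6.84-fold, adjusted p = 2.2e-09). Aph1b, which holds the complex together, rose by 0.89 from E14 to P56 (adjusted p = 8.1e-06), and Psenen, the smallest subunit, rose by 0.53 from E18 to P56 (adjusted p = 4.1e-04). Ncstn, which binds the substrate, passed in no comparison, but it was not well above background on any E14 or P56 array.

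All 3 tested enzymes that glycosylate Notch in the secretory pathway fell from E14 to E18, where 22.8% of all genes fell. Poglut1 fell by 0.51 on the log2 scale (adjusted p = 0.0078), Mfng by 0.37 and Pofut1 by 0.28. Pofut1 (-0.80, adjusted p = 3.1e-05) and Mfng (-0.73, adjusted p = 6.5e-05) were lower at P56 than at E14. In the nucleus, Rbpj was lower at P56 than at E14 (-0.60, adjusted p = 4.1e-04) and its coactivator Maml1 lower than at E18 (-0.68, adjusted p = 7.4e-05), while the corepressor Spen was higher than at E14 (0.54, adjusted p = 0.0038). Of the endocytosis and turnover genes, the ubiquitin ligases Itch and Mib1 rose from E14 to P56 by 0.85 (adjusted p = 8.8e-06) and 0.84 (adjusted p = 4.4e-05), and Neurl1a, not well above background on any P56 array, fell at least 1.40-fold (adjusted p = 0.013).

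From E18 to P56, where 33.6% of all genes fell and 31.2% rose, 4 of the 5 other target genes fell and 1 rose. Hey1 changed by -0.59 (adjusted p = 0.026) and Heyl by -0.33 (adjusted p = 0.012). Hes5 and Nrarp were not well above background on any P56 array, so Hes5 fell at least 1.21-fold (adjusted p = 0.0063) and Nrarp at least 1.25-fold (adjusted p = 0.011). Hes5 passed the filter on dim signals through its E18 arrays alone. Its fall from E18, and its place in this count, therefore follow in part from that filter and add no support. Dtx1, not well above background on any E18 array and above it on 1 of 3 P56 arrays, rose at least 1.53-fold (adjusted p = 0.0046). Nrarp, a feedback inhibitor of Notch, was also at least 1.45-fold lower at P56 than at E14 (adjusted p = 1.8e-04). Between E14 and E18, where 24.6% of all genes rose, no target rose by limma or at an unadjusted p under 0.05 (0 of 5). Notch1 and Notch2 rose in this step, and Nrarp fell by 0.29 on the log2 scale. Hes5 was not well above background on any E14 array but was on all 3 E18 arrays, and it changed by 0.22 (limma adjusted p = 0.099).

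Of 25 other biliary genes listed, 19 could be tested. The share called was 63.2%, 26.3%, 57.9%, 68.4% and 68.4% in the same 5 comparisons, and a difference from the share of all genes was not tested. From E14 to E18 11 rose and 1 fell, with a median log2 fold change of 0.68. From E18 to P5, 3 rose and 2 fell. From P5 to P56, 11 fell and 0 rose, also at an unadjusted p under 0.05 (median -0.69), and from E18 to P56, 12 fell and 1 rose (median -0.82). From E14 to P56, 8 rose and 5 fell (median 0.04). Cldn4, Cftr and Sctr, all genes of the duct epithelium, were not well above background on any array.

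The 3 other keratins tested, Krt8, Krt18 and Krt23, all rose from E14 to E18 and fell from P5 to P56. Over all genes, 24.6% rose in the first of these steps and 24.7% fell in the second. Krt18 rose from -2.11 ± 0.09 at E14 to -0.31 ± 0.17 at E18 (1.80, adjusted p = 3.2e-06) and its partner Krt8 from -2.41 ± 0.02 to -0.81 ± 0.11 (1.59, adjusted p = 1.7e-05), and hepatocytes make both. Krt23 also rose from E18 to P5 (1.47, adjusted p = 1.8e-04) to its highest level, 2.34 ± 0.39, and was lower at P56 by a log2 fold change of -2.81 (adjusted p = 1.1e-07). Among transcription factors, Onecut1 and Onecut2, which act in hepatocyte and duct lineages, rose by 1.91 (adjusted p = 3.4e-06) and 1.71 (adjusted p = 1.0e-05) from E14 to E18 and were still called higher than E14 at P56, Onecut2 by 1.60. Sox4, a relative of Sox9, fell by 0.38 in that step and by 0.70 from E14 to P56 (adjusted p = 5.4e-04).

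Of the surface and junction genes, Cdh1 (E-cadherin) rose from -0.73 ± 0.12 at E14 to 1.78 ± 0.07 at E18, a log2 fold change of 2.51 (adjusted p = 7.6e-07), and was back at -0.32 ± 0.43 at P56. E-cadherin is the antigen with which the study's methods purified embryonic hepatic cells. Cd24a was high at E14, E18 and P5 (3.97, 4.23 and 4.00) and fell to -0.85 ± 0.26 at P56, by -5.08 against E18 (33.8-fold, adjusted p = 4.9e-10), and blood cells also carry it. Tspan8 fell by 2.68 on the log2 scale from E14 to P56 (adjusted p = 2.2e-07). All 6 genes of this group were called lower at P56 than at E18, as were 33.6% of all genes. Epcam, a surface protein of ducts and progenitors, was at least 1.35-fold lower, and neither it nor Prom1 was well above background on any P56 array. Of the transport and cilium genes, the water channel Aqp1 rose by 1.94 from E14 to E18 (adjusted p = 4.6e-07), Ggt1, not well above background on any P56 array, was at least 4.74-fold lower at P56 than at E18 (adjusted p = 1.7e-06) and Bicc1 2.66-fold lower (adjusted p = 2.1e-06).

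**Figure D4:**
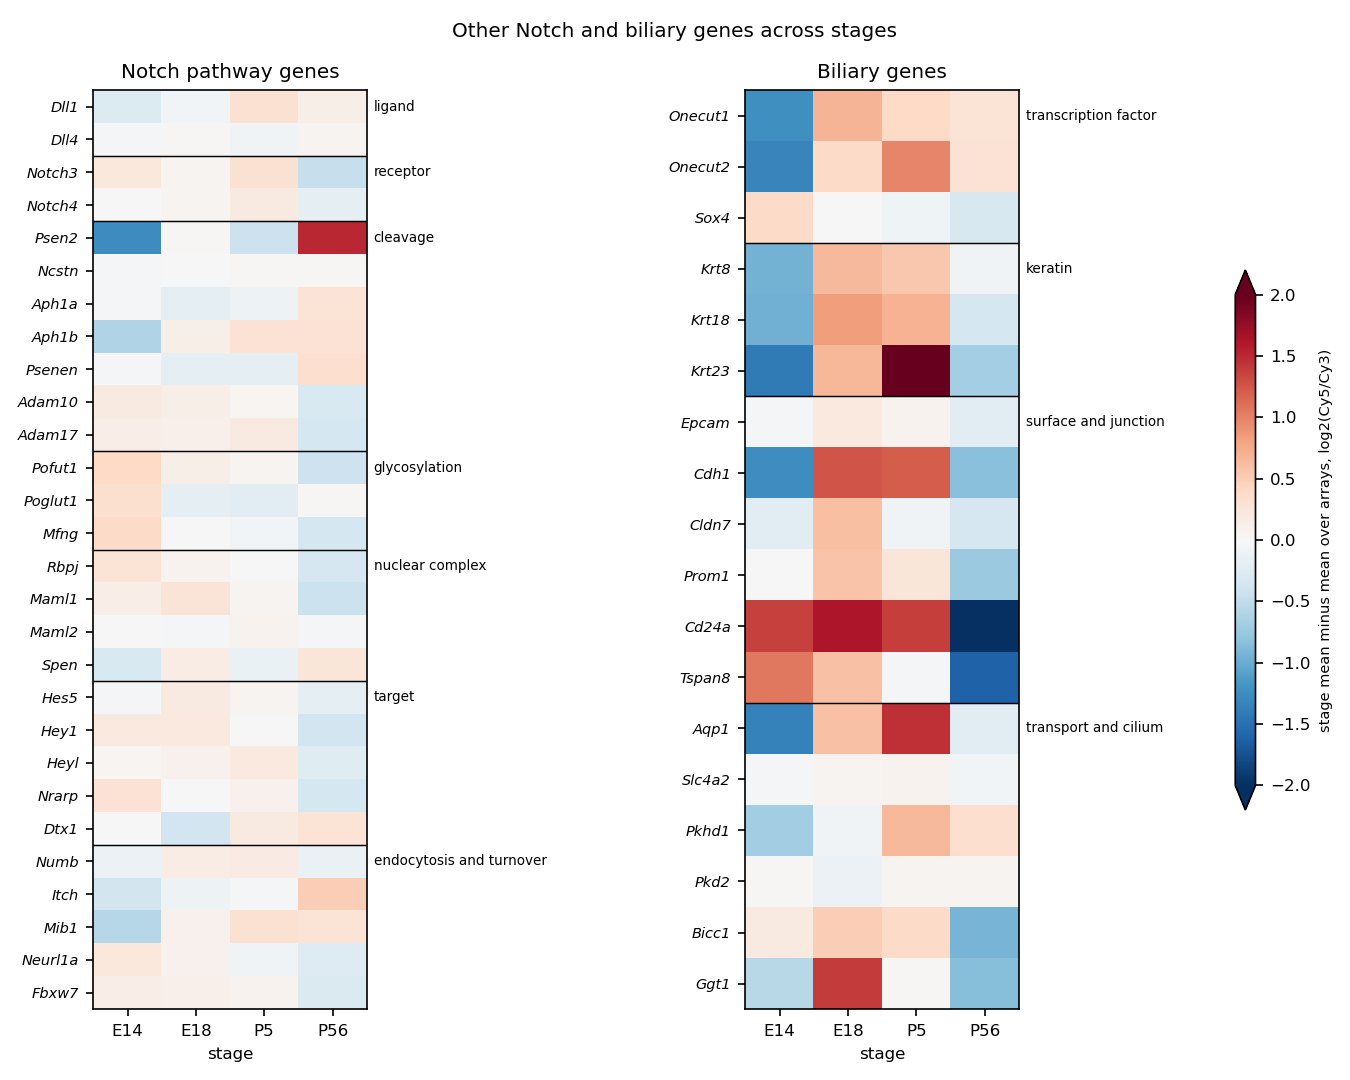
Stage means of the log2 ratio of Cy5 over Cy3 minus each gene's mean over the 11 arrays, for 28 of the 29 Notch pathway and 18 of the 19 biliary genes tested beyond the 8, grouped by role. Colours beyond 2 in either direction are clipped. Most Notch pathway cells are pale, Psen2 is the exception, and the biliary keratins are blue at E14.

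Markers of several other cell types moved along with these genes, and those of some did not. Over all genes, 24.6% rose and 22.8% fell from E14 to E18, and 20.9% rose and 24.7% fell from P5 to P56. Of 10 macrophage markers all rose from E14 to E18 (median 1.25), with a mean log2 ratio of -2.96 to -2.57 on the E14 arrays and -1.54 to -1.28 on the E18 arrays, and of 10 endothelial markers 6 rose (median 0.70), from -0.42 to -0.37 up to 0.22 to 0.24. All 8 mature hepatocyte markers rose in the same step (median 2.10), as did all 4 neutrophil markers (median 2.61), from a mean log2 ratio of 0.06 to 0.36 on the E14 arrays to 3.10 to 3.11 on the E18 arrays. Of 9 stellate and fibroblast markers 2 rose and 1 fell, and of 9 erythroid markers 3 rose and 1 fell (median 0.20). Of 4 megakaryocyte markers 0 rose and 2 fell (median -0.33). Of 5 hepatoblast markers 3 rose in this step (median 0.68), with a mean log2 ratio of 4.45 to 4.47 at E14, at least 5.02 at E18, 4.34 to 4.37 at P5 and 0.12 to 0.53 at P56, and all 5 fell from P5 to P56 (median -3.85). From P5 to P56, 6 of 10 macrophage markers (median -0.69) and 8 of 10 endothelial markers (median -0.70) fell. All 9 erythroid, 4 neutrophil and 4 megakaryocyte markers fell in this step too. Of 8 mature hepatocyte markers 3 rose and 2 fell (median -0.01), and of 9 stellate and fibroblast markers 2 rose and 4 fell. The erythroid mean was 3.25 to 3.32 at E14 and 3.37 to 3.59 at E18 against -0.25 to 0.10 at P56. All 59 markers were well above background somewhere, with all 10 endothelial and all 10 macrophage markers above it on every E14, E18 and P5 array. The part of these cell types in the changes of Spp1, Notch1 and Notch2 was not tested.

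**Figure D5:**
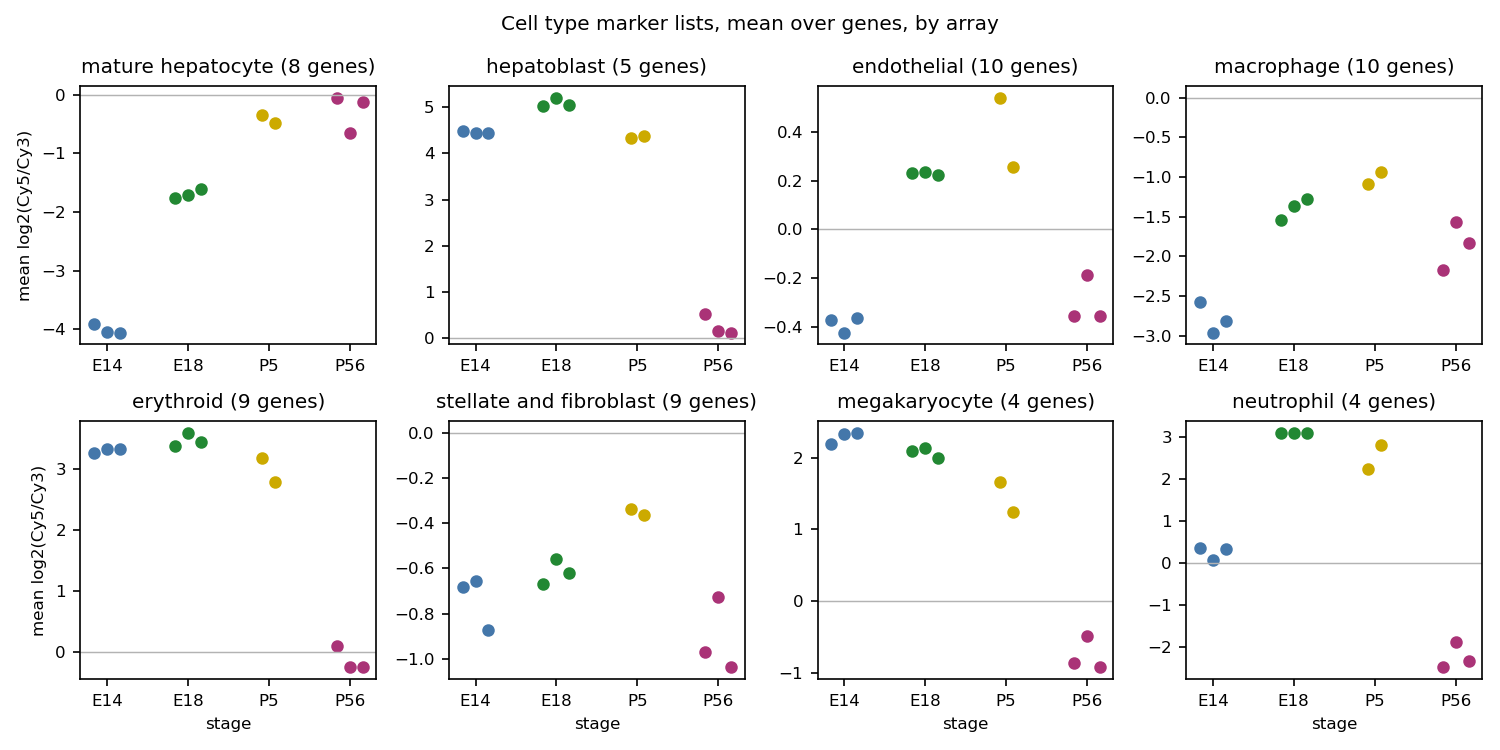
Mean log2 ratio of Cy5 over Cy3 over the genes of each marker list (vertical axis, scaled separately in each panel), with 1 point per array at the 4 stages. Endothelial and macrophage means are lowest at E14, higher at E18 and P5 and lower again at P56, and the erythroid mean drops from above 2.7 to near 0 at P56.

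For genes whose stage means spanned more than 1 on the log2 scale (Spp1, Notch2 and Sox9), the genes most alike in course were sought by the smallest root mean square difference over the 11 arrays after centring each gene on its mean. For the brightest probe of Notch2, whose fall to P56 the other Notch2 probes did not share, these were Pbxip1 (0.044), Lyn (0.083) and Bace1 (0.11). Lyn is a kinase of myeloid and B cells, and it went from -1.20 at E14 to -0.19 at E18 and -0.94 at P56. For Spp1 they included Cfi (0.23), complement factor I, a hepatocyte gene, and Pla1a (0.26). For Sox9 they were Myo9b (0.15), Ptpn1 (0.19) and Foxp1 (0.21).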

How the data were processed

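The 11 arrays carried Cy5-labelled amplified RNA of liver samples and a Cy3-labelled commercial adult liver reference, without dye swaps. The authors deposited Feature Extraction 9.5.1.1 output, from which mean signal intensity and median background intensity of both dyes were taken, and a gene table of log2 ratios made with limma, which served as an alternative. Groups followed the labels. With limma 3.58.1 in R 4.3.3, intensities were background-corrected (normexp, offset 50) and loess-normalised within arrays, outlier spots were left out and spots averaged per probe. Probes entered the fit if some stage had every array's Cy5 signal well above background and no stage lacked over 1 value. Genes with several such probes were represented by the brightest. Stages were compared by lmFit and eBayes over all 11 arrays, with Benjamini-Hochberg adjustment over 16702 genes (23523 probes for single probes) and a threshold of 0.05. The number of arrays limits the precision.

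The 8 genes, the lists of other Notch, biliary and marker genes and the tests were chosen with earlier results of these data known. Named were all 8 genes, in each role of the other lists up to 3 called genes with the largest change and no overlap, and the 3 genes most alike in course to each of the 8 spanning over 1; Ncstn, Dll4, Adam10, Adam17, Hes5, Heyl and Epcam were added after their values were seen. Some genes of these lists are not reported here. Fits were tested on simulated data. Replicate numbers did not pair the samples, since same-numbered arrays' deviations correlated at -0.31 to 0.085. Slide numbers in the headers could not be used as a block.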

Additional observations from a re-analysis of the deposited data

How the results depend on the processing

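Alternatives to the background correction, scaling, filter, choice of probe, test and blocks were run, and each array was left out in turn. The number of the 8 genes called from E14 to E18 went from 5 to 3 with scan as a fixed block, in the authors' gene table and with probes above background on all arrays, a filter that left 5 of the 8. From E18 to P5 it went from 2 to 0 in Cy5 alone, after median centring, with the replicate block and by the methods' t-test (an equal-variance test on the same values), and to 1 with the mean of all probes, an offset of 16, the scanner's processed signals, scan as a random block, the authors' table and the all-array filter. From P5 to P56 it went from 5 to 8 after median centring, to 3 with the scan block and the all-array filter and to 1 by the methods' t-test. From E14 to P56 it went from 3 to 5 in Cy5 alone, with an offset of 16 and with processed signals, and to 6 after median centring and in the authors' table. Of the other Notch and biliary genes, the all-array filter called 13, 3, 16, 17 and 20 (E18 against E14, P5 against E18, P56 against P5, P56 against E18, P56 against E14) in place of 21, 6, 25, 30 and 33. The authors' table called 3 between E18 and P5, the scan block 11 between P5 and P56, and the methods' t-test 0 and 1 in these steps. At an unadjusted p under 0.05 these 0 counts were 3 (Cy5 alone), 2 (median centring), 4 (replicate block) and 3 (t-test) of the 8 genes, and 6 of the other genes (t-test). With 1 array left out, the 8 genes gave 4 to 5, 0 to 2, 3 to 6, 6 to 7 and 2 to 4 calls in the same order, and the other genes 16 to 26, 3 to 9, 12 to 26, 24 to 33 and 29 to 34, of which P5 replicate 2 set the 12 and E18 replicates 2 and 3 each the 3.

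The replicate block changed no other count of the 8 genes by over 1.5 times, and gave 7 in place of 6 from E18 to P56. Values that turned sign with a call on one side, beside those of Notch1 (-0.22 and -0.021) and Notch2 (-0.74) between E14 and P56, were Notch1 probe 2 from E14 to P56 (-0.069), Notch2 probe 2 from E18 to P56 (-0.42) and from P5 to P56 (-0.38), all after median centring, and Notch2 probe 3 from E18 to P56 with processed signals (-1.07). A further 37 values not called either way changed sign. The causes were not tested. The offset of 16 and the random scan block (correlation within scans 0.18) were chosen after seeing the data. Splits of all called genes moved by over 10 percentage points after median centring of the P56 comparisons, from E18 to P5 in the authors' table (67.8% higher against 53.4%) and by the methods' t-test (65.6%), and from P5 to P56 by that test (35.2% against 45.7%).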
